A study of Mus musculus with 33 samples.

Results

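The gene set studied here holds 39 genes of the B cell receptor and of B cell development, taken from a given list out of the 32285 genes in the count tables. By role it comprises 9 genes of the antigen receptor complex and surface coreceptors, 5 immunoglobulin constant chains, 5 kinases and adaptors, 6 transcription factors, 2 receptors for the survival factors BAFF and APRIL, 7 precursor genes and 5 plasma cell genes. The list was chosen with earlier results from these data known. The genes were measured by single-cell RNA-seq in mouse tissues in which SAMENT, a niche labelling method, had tagged the neighbours of injected tumour cells with biotin during a labelling period of about 10 hours. Tagged (biotin positive) and untagged (biotin negative) cells were then separated by sorting. Intracardiac injection was followed in lung, liver, brain and bone (femurs and tibias), with 4 samples of each sort per tissue. A pooled bone sample of another injection, which the labels call IIA without further words, was also used, and its 12 hashtags gave 6 positive and 6 negative samples. The labels name no strain, genotype, sex, age or tumour cell line, and no animal without tumour cells or without labelling was among the groups. Nothing in the labels says that samples of a group came from separate animals, so p-values measure the spread between these samples.

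As background, B cells are made in bone marrow. The transcription factors Ebf1 and Pax5 commit a progenitor to the lineage, the Rag recombinase and the polymerase Dntt assemble the heavy chain gene, and Vpreb1 and Igll1 stand in for a light chain in the pre-B cell receptor until a kappa or lambda chain is made. The mature receptor joins membrane IgM or IgD (Ighm, Ighd) to the signalling chains Cd79a and Cd79b. After activation some B cells become plasma cells, in which Prdm1 shuts down B cell genes, and Jchain, Mzb1 and Derl3 serve antibody assembly and secretion.

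Promoter sequence is shown for 5 genes of the set that were lower in biotin positive IIA cells and whose window held a motif of a B cell transcription factor. The windows come from RefSeq (GRCm38.p6), are read 5′ to 3′ on the strand of the gene, and end before a start site given by RefSeq. They are Vpreb3 at chr10:75948200-75948299 (plus strand), Igll1 at chr16:16864136-16864235 (minus strand), Spib at chr7:44532087-44532186 (minus strand), Cd22 at chr7:30879029-30879128 (minus strand) and Bank1 at chr3:136326067-136326166 (minus strand). Capitals mark the octamer bound by Oct factors, with which the product of Pou2af1 acts, in Vpreb3, and the palindrome of the Ebf1 site, CCCNNGGG, in the other genes.
Vpreb3: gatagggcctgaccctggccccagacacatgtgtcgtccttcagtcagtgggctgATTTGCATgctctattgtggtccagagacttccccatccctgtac
Igll1: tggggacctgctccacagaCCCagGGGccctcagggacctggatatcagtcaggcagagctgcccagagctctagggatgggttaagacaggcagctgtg
Spib: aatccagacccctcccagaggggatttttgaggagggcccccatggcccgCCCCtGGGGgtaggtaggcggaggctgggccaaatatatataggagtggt
Cd22: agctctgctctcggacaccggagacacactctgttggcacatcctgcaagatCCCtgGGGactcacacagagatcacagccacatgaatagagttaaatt
Bank1: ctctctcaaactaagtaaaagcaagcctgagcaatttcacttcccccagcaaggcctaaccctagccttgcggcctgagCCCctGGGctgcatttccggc
RefSeq held a promoter for 30 of the 39 genes. For 23 of their 34 promoter entries, the bases after the start lay near the beginning of a transcript in the GENCODE annotation. In the 250 bases before the start site, on either strand, the octamer ATGCAAAT was present in 2 of these 30 genes (6.67%; Vpreb3 and Blnk) and in 1.81% of all 27025 genes with a promoter, or 1.6% of 32851 promoters. The palindrome was present in 5 of 30 (16.7%; Cd22, Bank1, Spib, Igll1 and Sdc1) and in 13.4% of all genes, or 11.8% of promoters. In Spib 2 matches overlap. These matches describe the sequence only.

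The lambda constant genes Iglc2 (chr16:19198396-19200351) and Iglc3 (chr16:19065230-19065681), positions in GENCODE for the mm10 build, are near-identical copies. Their coding sequences are identical in 96.2% of 315 aligned bases. Aligned bases 19 to 78 are shown, with the differing bases in capitals. They hold 5 differences, and no stretch of that length without a gap held more. Reads from stretches that are the same in both genes can be divided between the copies. Counts of the pair are therefore uncertain. The last 90 bases of the transcripts, when aligned, were identical at 80 positions, and how reads were divided was not tested.
Iglc2: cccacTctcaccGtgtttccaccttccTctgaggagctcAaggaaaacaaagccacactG
Iglc3: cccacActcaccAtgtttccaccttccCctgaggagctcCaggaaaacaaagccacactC

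After filtering, 55366 intracardiac and 22362 IIA cells were kept, with total UMI counts (unique molecules) per sample of 497940 to 44874529 and 2162659 to 28010268. Cells were clustered without the 39 genes and without immunoglobulin segments, and classes were named by resemblance to other marker genes. The intracardiac samples held 4980 B-like cells (median 2198.5 UMIs per cell), 179 precursor-like and 184 plasma-like cells, and the IIA samples 968 (median 1434.5 UMIs), 660 and 98. A further 58 cycling intracardiac cells of mixed B lineage were left out of these classes, as were 453 and 100 cells whose leading genes belonged to other lineages. Among intracardiac libraries 341 barcodes were shared. Replicates 3 and 4 listed the same panel of multiplexing tags in their file headers, and replicates 1 and 2 each had a panel of their own, in every tissue and sort. Liver positive replicate 4 held 94 kept cells. In brain, 69 of the 73 precursor-like cells of negative samples came from replicate 1, in which microglia-like cells made up 0.0977% of kept cells against 0.412 to 0.665% in the other negative brain samples. Whether that sample is as labelled was not tested.

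The precursor genes gave the IIA precursor-like cells 2 profiles. Sub-cluster 4 (112 cells, led by Arpp21, Erg and Lef1) held the recombination polymerase Dntt at 831 to 1681 CPM (median 1334, n = 3) over its samples with at least 10 cells, against 0 to 45.3 CPM (median 0, n = 6) in precursor sub-cluster 1 (282 cells, with Il7r, Sox4 and Myb among its markers). Values are CPM, the usual scaling of a gene's UMIs by the total UMIs, with the cells of a sample summed. The surrogate light chain genes followed the same order. Vpreb1 was at 2038 to 3065 CPM (median 2196, n = 3) in sub-cluster 4 and 36.2 to 72.1 CPM (median 57.2, n = 6) in sub-cluster 1, and Igll1 at 1776 to 2618 CPM (median 2349.6, n = 3) and 0 to 72.1 CPM (median 6.04, n = 6). For all 3 genes the 2 sub-clusters did not overlap over samples. How often other genes did so was not counted, here or for the sub-clusters below.

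Igkc and Il2ra ran the other way. The kappa constant gene Igkc was at 82.1 to 170.3 CPM (median 84.1, n = 3) in sub-cluster 4 and 1004 to 1747 CPM (median 1146, n = 6) in sub-cluster 1, and Il2ra, the interleukin 2 receptor alpha chain carried by small pre-B cells, at 0 CPM in each of 3 samples and 93.5 to 469 CPM (median 175, n = 6). The recombinase subunit Rag1 was present in both, at 231 to 319 CPM (median 257, n = 3) and 291 to 615 CPM (median 392, n = 6), with overlapping ranges. It was at 0 to 67.5 CPM (median 25.4, n = 5) in the cycling precursor sub-cluster 5 (227 cells). Rag2 was at 85.1 to 113 CPM (median 105, n = 3) and 0 to 93.5 CPM (median 68.6, n = 6). The heavy chain Ighm went from 1485 to 5084 CPM in pooled cells, and the transcription factor Bach2, a repressor of the plasma cell programme, from 2289 to 9329 CPM. No test was made between sub-clusters, because the same cells defined them.

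Vpreb3, which is made in precursors and newly formed B cells, and the receptor genes ordered the later stages. In IIA cells Vpreb3 was at 2648 to 3767 CPM (median 2945, n = 3) and 2505 to 3108 CPM (median 2783, n = 6) in the 2 precursor sub-clusters, 998 to 2085 CPM (median 1562, n = 6) in the unnamed B-like sub-cluster 3 (271 cells, led by Klhl14), and 171 to 351 CPM (median 199.8, n = 6) in sub-cluster 7, which resembled mature follicular B cells (399 cells). Ighd, the IgD heavy chain of mature B cells, took the opposite course, at 236 to 649 CPM (median 428, n = 6) in sub-cluster 3 and 1016 to 1449 CPM (median 1236, n = 6) in sub-cluster 7. The ranges of the 2 sub-clusters overlapped for neither gene. Sub-cluster 7 also held Fcer2a (CD23), at 164 to 354 CPM (median 281, n = 6), and the complement receptor Cr2 (CD21), at 150.5 to 331 CPM (median 208, n = 6). Both genes had 0 counts in precursor sub-clusters 4 and 1. The inhibitory coreceptor Cd22 was at 417 CPM in pooled cells of sub-cluster 7 and 852 CPM in sub-cluster 10 (140 cells, with Tbx21 and Cd80), where Vpreb3 was at 16.7 CPM and Cr2 at 0. Of the 140 cells, 103 came from negative injection 5, 8 from positive injection 5 and 26 from negative injection 4, so that these pooled values describe mainly 1 injection.

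Of the transcription factors of commitment in IIA cells, Ebf1 was highest in precursors, and Pax5 and Spib in sub-cluster 3. Ebf1 was at 10258 to 11953 CPM (median 11338, n = 3) and 7977 to 12108 CPM (median 9615, n = 6) in IIA sub-clusters 4 and 1, 2048 to 2694 CPM (median 2346, n = 6) in follicular-like cells and 45.8 to 270.1 CPM (median 86.1, n = 5) in plasma-like cells, and no 2 of the last 3 ranges overlapped. Pax5, which maintains B identity, was at 820.3, 1254, 833 and 7.72 CPM in the same pooled sub-clusters and 1591 CPM in sub-cluster 3. Spib, an ETS factor of receptor signalling, was at 79.4 CPM in sub-cluster 4, 531 in sub-cluster 1 and 777 in sub-cluster 3. In intracardiac cells both were higher in pooled precursor-like than in pooled B-like cells, Pax5 at 547 against 322 CPM and Spib at 731 against 156 CPM.

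Intracardiac samples held a single precursor-like sub-cluster, number 8 (179 cells), in which 2.23% of cells had a UMI of Dntt, 5.03% of Vpreb1 and 2.79% of Igll1. Vpreb3 was at 3754 to 5347 CPM (median 4408, n = 4), Rag1 at 98.5 to 596 CPM (median 337, n = 4) and Il2ra at 102 to 123 CPM (median 113, n = 4). Dntt had 0 counts in 3 of the 4 samples with at least 10 such cells. The fourth was bone positive replicate 1 (11 cells), with 9 UMIs of Dntt, 19 of Vpreb1 and 17 of Igll1, where bone negative replicates 1 and 3 (48 and 27 cells) and brain negative replicate 1 (69 cells) had 0 of Dntt, 1 or 2 of Vpreb1, and 0 or 1 of Igll1. The sub-cluster held 23 UMIs of Dntt, 47 of Vpreb1 and 31 of Igll1 in all (64.9, 133 and 87.5 CPM in pooled cells), and the rest of these lay in samples with fewer than 10 such cells. With 1 positive and 2 negative bone samples, and no positive IIA sample with 10 precursor-like cells, no fit between sorts was run within precursors. The immature or transitional sub-cluster 6 (459 cells) held Vpreb3 at 227 to 1902 CPM (median 1317, n = 8) and Cd79a at 2446 to 3966 CPM (median 3459.9, n = 8), with Tnfrsf13c, the BAFF receptor, at 491 CPM in pooled cells.

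Sub-cluster 13 of the intracardiac B cells (766 cells, led by Apoc2, with Fcrl5 and Bhlhe41 in its profile) was low in IgD and in several mature receptors. Ighd was at 55.2 to 295 CPM (median 124, n = 12), whereas pooled values of the other B-like sub-clusters ran from 513 to 1275 CPM. Ighm was at 3971 to 7123 CPM (median 5491, n = 12), against 3166 to 5525 CPM in the other pooled sub-clusters. Cr2, Fcer2a and Vpreb3 were at 5.8, 10.6 and 38.3 CPM in its pooled cells, and the lectin coreceptor Cd72 at 329 CPM. It held 2 genes of the marginal zone or B-1 marker list, Bhlhe41 and Plac8, where a name needed 3, and it stayed unnamed. Its share of B-like cells followed the replicate number in negative samples, at 0.915, 0.40, 16.5 and 17.1% in bone replicates 1 to 4, 0.608, 1.22, 23.3 and 15.3% for those of brain, 2.57, 1.86, 48.6 and 35% for liver and 2.29, 3.29, 42.8 and 25.9% for lung. In all 4 tissues replicates 3 and 4, which share a tag panel, were higher than replicates 1 and 2. Sub-cluster 6 was largest in replicate 1 in bone, brain and liver, with 32.3, 0.40, 3.16 and 18.6% for bone replicates 1 to 4, 33.4, 0, 2.91 and 5.65% for brain, 14.2, 0, 0 and 1.25% for liver and 2.29, 0, 0 and 3.19% for lung. Tag panel and any other property of those replicates cannot be told apart.

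Plasma-like cells were dominated by their constant chains. In the 8 intracardiac samples with at least 10 such cells Igkc was at 196860 to 394991 CPM (median 387045, n = 8), Ighm at 17913 to 113062 CPM (median 78631, n = 8) and Jchain, the joining chain of secreted IgM and IgA, at 17142 to 42521 CPM (median 25786, n = 8). Liver negative replicate 3 (12 cells) held the lowest Igkc and the highest Iglc2, a lambda chain, at 80332 CPM. Ebf1 (24.7 CPM) and Pax5 (2.62 CPM) were lower in pooled plasma-like cells than in every pooled B-like sub-cluster. IIA plasma-like cells gave 105160 CPM of Igkc, 49677 of Ighm, 14848 of Jchain, 1349 of the IgM assembly chaperone Mzb1, 232 of Derl3, which acts in degradation from the endoplasmic reticulum, 173 of Sdc1 (CD138) and 140.1 of Prdm1. The 2 experiments were sequenced from opposite transcript ends (3′ and 5′), so their levels were not compared.

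**Figure D1:**
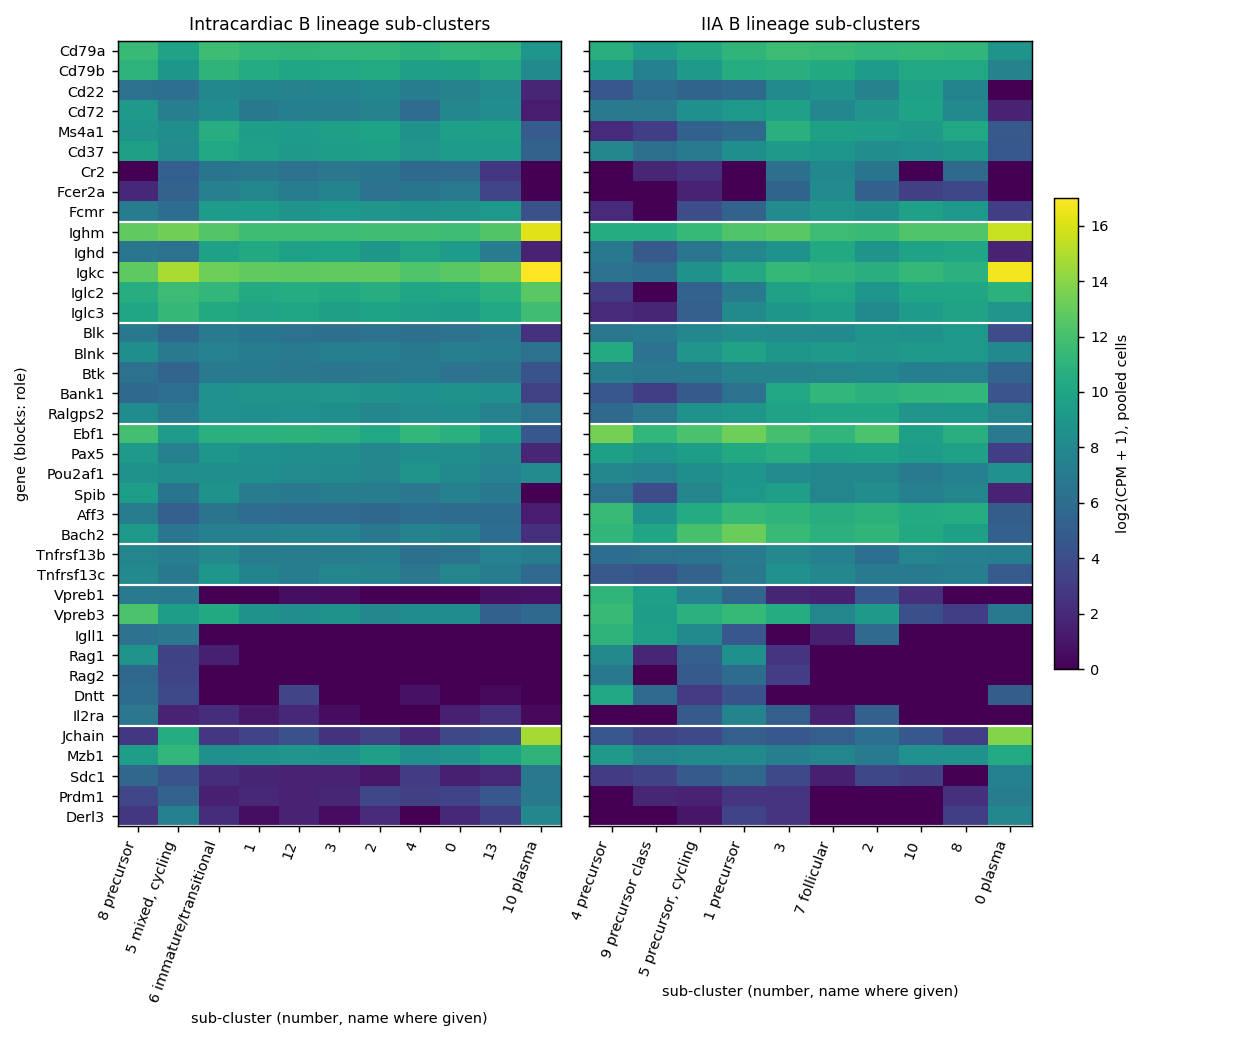
Levels of the 39 genes, as log2(CPM + 1) of pooled cells (colour), in each B lineage sub-cluster (columns) of the intracardiac and IIA experiments; rows are genes in blocks by role. Vpreb3 is bright in precursor sub-clusters 8 (intracardiac), 4 and 1 (IIA), while Dntt, Vpreb1 and Igll1 are brighter in IIA sub-cluster 4 than in 1. Ighd is dark in intracardiac sub-cluster 13, and Igkc, Ighm and Jchain are brightest in the plasma columns.

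Several of the 39 genes had most of their UMIs outside B cells. Of intracardiac UMIs of Cd79a 79.9% lay in B-like cells, as did 82.2% of Ighd and 82.4% of Ms4a1 (CD20). Plasma-like cells held 80.2% of Igkc, 88.7% of Jchain and 66.2% of Ighm. In contrast, cells outside the B lineage held 94.7% of Prdm1, 94.9% of Dntt, 94.6% of Il2ra, 91.3% of the kinase Btk, 85.1% of Tnfrsf13b (TACI), 83.3% of the tetraspanin Cd37 and 72.7% of Sdc1. Their highest other classes were alveolar macrophage-like cells for Prdm1 (138 CPM), plasmacytoid dendritic-like cells for Dntt (164 CPM) and Tnfrsf13b (289.6 CPM), and innate lymphoid-like cells for Il2ra (169 CPM). In the IIA experiment precursor-like cells held 89.1% of Igll1, 85.6% of Vpreb1, 83.5% of Rag1 and 73.8% of Vpreb3. They held only 28.1% of Dntt and 39.9% of Il2ra. Cells outside the B lineage held 68.4% of Dntt, highest in stem or progenitor-like cells, and 50.8% of Il2ra, highest in T-like cells. Other cells there held 80.9% of Sdc1, highest in stromal-like cells, and 81.2% of Prdm1, highest in macrophage-like cells.

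The abundant chains were also detected in cells that should lack them. Igkc was detected in 96.1% of intracardiac B-like cells and in 27.2% of neutrophil-like cells, whose median depth was 5675 UMIs against 2198.5. Ighm was detected in 97.5% and 13.3%, Cd79a in 97.7% and 1.53%, and Vpreb3 in 42% and 0.201%.

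**Figure D2:**
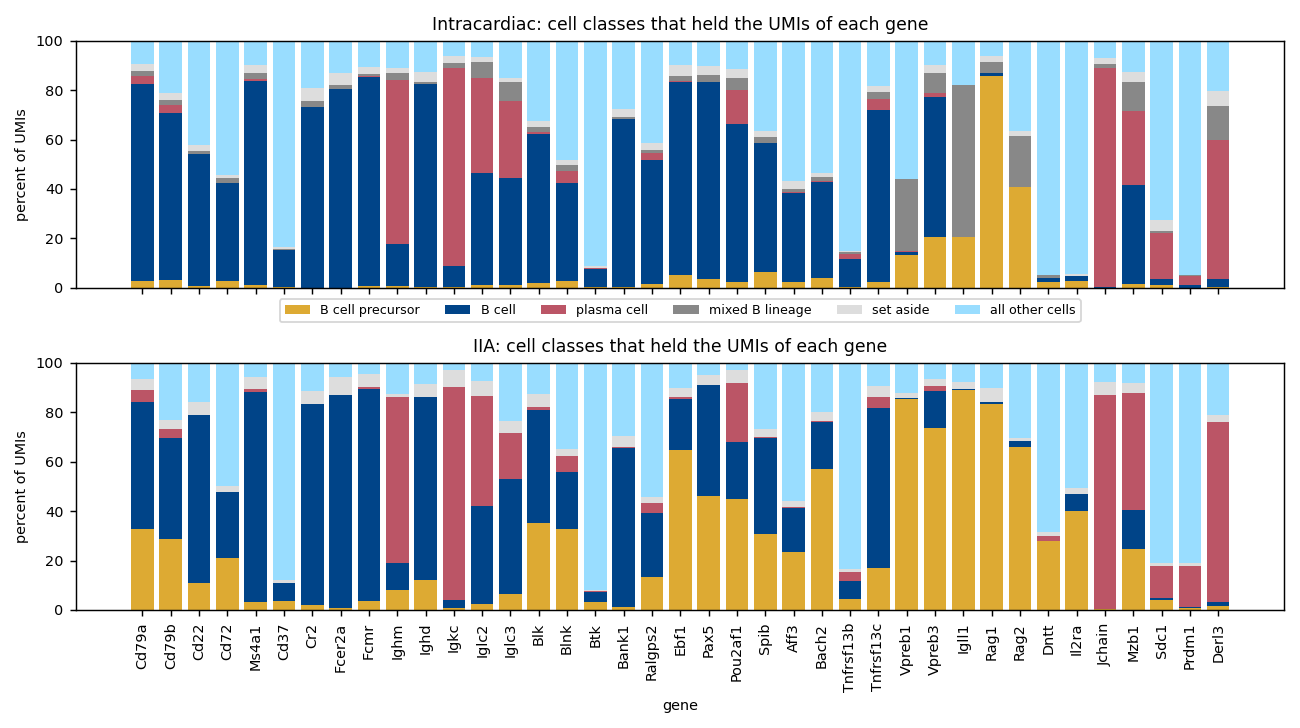
Percent of the UMIs of each gene (bars, vertical axis from 0 to 100) held by precursor-like, B-like, plasma-like, mixed B lineage, set-aside and all other cells, in intracardiac and IIA samples. Igkc and Jchain lie mostly in plasma-like cells, and Btk, Cd37, Tnfrsf13b, Prdm1 and Sdc1 mostly outside the B lineage.

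The first comparison asked whether these genes made up more or less of the RNA in positive than in negative samples, with all kept cells summed. In such sums fewer cells of a type, less RNA of these genes per cell and more RNA in other cells cannot be told apart. Median UMIs per cell were 3345, 3837, 3135 and 3588 in negative and 7269.5, 9294, 5015 and 4428 in positive lung replicates 1 to 4. In IIA bone they ran from 2532 to 3991 in negative and 3641 to 10766 in positive samples. Whether this depth bears on the results was not tested. In lung 34 of the 39 genes passed the low count filter and were tested, and 13 of these were lower in positive samples and none was higher at an adjusted p under 0.05 (edgeR quasi-likelihood test, n = 4 and 4), where 6.8% of all 12331 genes tested were lower and 11.5% higher (18.3% either way). The median log2 fold change was -2.08 over the tested genes of the set, which ran from -3.03 to 1.05, and -0.04 over all genes tested. By role, 5 of 6 transcription factors, 3 of 5 kinases and adaptors, 2 of 9 receptor complex and coreceptor genes, 1 of 5 constant chains, 1 of 2 BAFF and APRIL receptors, 1 of 2 tested precursor genes and 0 of 5 plasma cell genes were lower. That precursor gene was Il2ra and that receptor Tnfrsf13b. Of their intracardiac UMIs 94.6% and 85.1% lay outside the B lineage.

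Bach2 was at 30.7, 13.3, 38.5 and 15.8 CPM in negative lung replicates 1 to 4 and 7.3, 5.47, 6.03 and 7.94 CPM in positive ones (log2 fold change -2.08, SE 0.30, edgeR adjusted p = 0.00359). Ighd was at 45.9, 24.6, 72 and 43 CPM and 10.9, 1.89, 6.76 and 19.3 CPM (log2 fold change -2.48, SE 0.61, edgeR adjusted p = 0.0234). Ebf1 was at 97.9, 64.1, 228 and 110.3 CPM and 24.3, 4.5, 20.4 and 46.5 CPM (log2 fold change -2.56, SE 0.64, edgeR adjusted p = 0.0256). Every positive sample was below every negative sample for all 3 genes, and the share of all genes for which this held was not counted. Positive replicate 2 was lowest for each, and positive replicate 4 highest. The other genes that were lower were Fcmr, the IgM Fc receptor (-3.03), Il2ra (-2.90), Pax5 (-2.76), the coactivator Pou2af1 (-2.63), Fcer2a (-2.52), the Src-family kinase Blk (-2.49), the scaffold Bank1 (-2.49), the exchange factor Ralgps2 (-2.26), Spib (-2.18) and Tnfrsf13b (-1.24), with edgeR adjusted p-values up to 0.0411.

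The signalling chain Cd79a was at 154, 66, 372 and 239.8 CPM in negative and 29.7, 3.66, 50.7 and 96.5 CPM in positive lung, and did not pass (log2 fold change -2.34, SE 0.84, edgeR adjusted p = 0.0833). Its groups overlapped, since negative replicate 2 was below positive replicate 4. Secretory genes were spread widely over the replicates. Igkc was at 717, 161, 9084 and 14102 CPM and 256, 15, 2114 and 5152 CPM (log2 fold change -1.80, SE 1.58, edgeR adjusted p = 0.441), with replicates 3 and 4 high in both sorts. Its positive sample was lower in 4 of 4 replicate numbers, thus within each tag panel, though equal numbers were not taken as pairs in lung. Ighm (-1.40, edgeR adjusted p = 0.528), Jchain (-1.61, 0.527), Mzb1 (-2.52, 0.146) and Vpreb3 (-1.92, 0.118) did not pass either, and each was lower in 4 of 4 replicate numbers. Prdm1 was at 33.1, 21.8, 40.7 and 22.2 CPM in negative and 110.0, 114, 38.7 and 31.1 CPM in positive samples (log2 fold change 1.05, SE 0.37, edgeR adjusted p = 0.0797), and its level in alveolar macrophage-like cells is given above. With each lung sample left out in turn, 2 to 15 genes were called. Among the smaller counts were 2 lower once negative replicate 4 was dropped (2.39% of all genes lower), 3 once negative replicate 1 was (2.02%), 4 for negative replicate 3 (2.63%) or positive replicate 3 (3.39%), and 6 for positive replicate 1 (2.91%).

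In IIA bone 37 of the 39 genes were tested, of which 23 were lower and 2 higher in positive samples (edgeR adjusted p under 0.05, n = 6 and 6). Of all 12625 genes tested 23.2% were lower and 27% higher (50.2% either way). The median log2 fold change was -2.06 over the tested genes of the set, which ran from -4.46 to 2.06, and 0.08 over all. All 6 transcription factors, 7 of 8 tested receptor complex and coreceptor genes, 5 of 6 precursor genes, 2 of 5 constant chains, 2 of 5 kinases and adaptors and 1 of 2 BAFF and APRIL receptors were lower, and 2 of 5 plasma cell genes were higher.

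Dntt ran from 11.9 to 27.6 CPM (median 17.2, n = 6) in negative and 0 to 2.62 CPM (median 0.636, n = 6) in positive IIA samples (log2 fold change -4.46, SE 0.50, edgeR adjusted p = 2.64e-05). Vpreb3 ran from 25.5 to 146 CPM (median 71.5, n = 6) and 1.04 to 17.7 CPM (median 13, n = 6) (log2 fold change -3.15, SE 0.63, edgeR adjusted p = 0.00135). Cd79a ran from 63.3 to 198 CPM (median 90.9, n = 6) and 4.73 to 47.4 CPM (median 12.7, n = 6) (log2 fold change -3.0, SE 0.53, edgeR adjusted p = 0.000642). The sorts did not overlap for any of these 3 genes, and the share of all genes without overlap was not counted. Of IIA UMIs of Dntt 68.4% lay outside the B lineage, as given above. Among precursor genes Rag1 (-3.33), Igll1 (-2.52) and Vpreb1 (-2.32) were also lower on the log2 scale. Among receptor and coreceptor genes, so were Fcmr (-3.68), Ms4a1 (-2.99), Cr2 (-2.82), Cd22 (-1.98) and Cd79b (-1.72), together with Ighd (-3.25), Blk (-3.35), Bank1 (-2.15) and Tnfrsf13c (-2.92). The transcription factors Spib (-3.50), Pax5 (-3.11), Bach2 (-3.10), Ebf1 (-2.27) and Aff3 (-1.85) moved the same way, with edgeR adjusted p-values from 8.54e-05 to 0.014 over these named genes.

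Plasma cell genes and the abundant constant chains did not pass as lower. Igkc ran from 204 to 2369.8 CPM (median 706, n = 6) in negative and 21.9 to 5110.3 CPM (median 134, n = 6) in positive samples (log2 fold change -0.01, SE 1.18, edgeR adjusted p = 0.994), with positive injection 4 highest of all 12. Ighm had a log2 fold change of -2.04 (edgeR adjusted p = 0.0622). Mzb1 (-0.19, edgeR adjusted p = 0.887) and Jchain (-1.09, 0.27) did not pass. Sdc1 ran from 2.56 to 8.09 CPM (median 6.43, n = 6) and 1.76 to 67.5 CPM (median 20.6, n = 6) and was called higher (log2 fold change 2.06, SE 0.73, edgeR adjusted p = 0.0334). Positive injections 5 and 6 lay within the range of the negative samples or below it. Prdm1 was higher as well (log2 fold change 1.43, SE 0.56, edgeR adjusted p = 0.0489). Neither gene was called without any 1 of 8 single samples (negative injections 1, 3, 4, 5 or 6, positive injections 1, 2 or 3), and most UMIs of both genes lay outside the B lineage.

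In bone, brain and liver of intracardiac mice the genes of the set did not pass the edgeR test without the replicate block. With it some passed in bone and brain, as given for each tissue. In bone 0 of 36 tested genes were called and 0% of all 12533 genes, with 6 of the set at an unadjusted p under 0.05 (7.84% of all genes) and 1 called by DESeq2 (Igkc, lower; 0.423% of all genes). The median log2 fold change was -1.05 against 0.01 over all genes. Igkc was at 5291, 743, 6679 and 3227 CPM in negative and 689, 83.5, 949 and 336 CPM in positive bone (log2 fold change -3.09, SE 0.81, edgeR adjusted p = 0.615), lower in 4 of 4 pairs. Jchain (-2.86), Ighm (-2.44), Dntt (-1.68), Mzb1 (-1.58), Cd79a (-1.26), Vpreb3 (-1.26) and Ighd (-1.19) had edgeR adjusted p-values from 0.615 to 0.672. With the replicate number as a block Igkc (log2 fold change -3.21, edgeR adjusted p = 0.0187) and Mzb1 (-1.55, adjusted p = 0.0472) were lower, where 0.0638% of all genes were (0.0319% higher, 0.0957% either way).

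In brain 0 of 32 tested genes were called, while 3.06% of all 11064 genes were (0.181% as lower, 2.88% as higher). There 16 genes of the set had an unadjusted p under 0.05 (21% of all genes), and the median log2 fold change was -1.56 against -0.03. Cd79a was at 155, 50.3, 187 and 62.3 CPM in negative and 61.1, 5.6, 21.1 and 34.7 CPM in positive brain (log2 fold change -2.07, SE 0.66, edgeR adjusted p = 0.121), lower in 4 of 4 pairs, though the groups overlapped. With the block 10 genes of the set were lower (Cd79a, Cd79b, Fcmr, Ighd, Iglc2, Iglc3, Mzb1, Pax5, Pou2af1 and Tnfrsf13c; edgeR adjusted p = 0.035 for Cd79a), as were 1.3% of all genes (6.88% either way). DESeq2 called 8 lower and 1 higher (3.17% of all genes lower, 11.1% either way), the latter the adaptor Blnk (1.52 in edgeR, adjusted p = 0.144), whose highest level outside the B lineage, 151 CPM, was in microglia-like cells. Igkc (-0.21, edgeR adjusted p = 0.946) and Ighm (0.14, 0.956) did not pass in brain, nor did Dntt (-2.45), Vpreb3 (-1.81), Mzb1 (-1.75), Ighd (-1.71) or Jchain (-1.44). Without positive replicate 1 the edgeR test called 6 genes of the set lower and 1 higher, where 1.29% of all genes were lower and 5.36% higher. Without negative replicate 1, which held most precursor-like cells, it called 0 (0.0265% of all genes).

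In liver 0 of 35 tested genes and 0% of all 11854 genes were called, with 8 of the set at an unadjusted p under 0.05 (13.3% of all genes), 4 called lower by DESeq2 (Ighd, Ebf1, Pou2af1 and Spib; 3.64% of all genes either way) and 0 called with the block. Ighd was at 113, 47.3, 72.8 and 41.5 CPM in negative and 36.2, 11.8, 24.5 and 29 CPM in positive liver (log2 fold change -1.62, SE 0.41, edgeR adjusted p = 0.158), and the groups did not overlap. The share of all genes without overlap was not counted there. The median log2 fold change was -1.09 against 0.02. Dntt (-2.18), Jchain (-2.07), Igkc (-2.05), Ighm (-1.57), Mzb1 (-1.30), Vpreb3 (-1.28) and Cd79a (-0.90) had edgeR adjusted p-values of 0.352 or more. Whether lung differed from the other tissues was tested directly. Of 36 genes of the set 0 passed in the interaction of lung against the mean of bone, brain and liver (edgeR), where 2.54% of 13963 genes did, and 4 had an unadjusted p under 0.05 (Ralgps2, Bank1, Bach2 and Btk), as had 15.3% of all genes. DESeq2 was not run for this contrast.

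**Figure D3:**
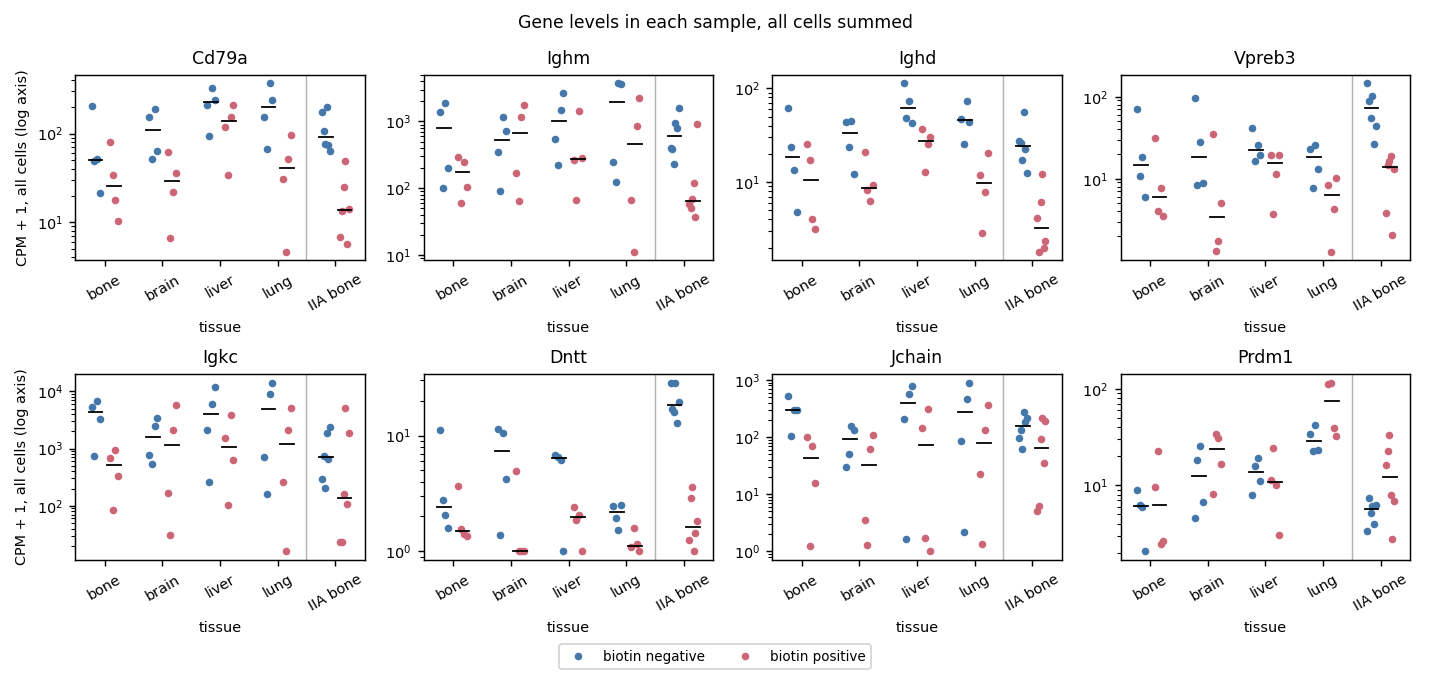
CPM + 1 (log axis) of 8 genes in each sample with all cells summed, by tissue and sort; points are samples and bars are medians. Positive samples lie below negative ones for Ighd in lung, liver and IIA bone and for Dntt, Vpreb3 and Cd79a in IIA bone, while Igkc overlaps between sorts in every tissue, and Prdm1 in positive lung reaches 114 CPM.

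The share of B-like cells moved with these levels. In lung B-like cells made up 9.49, 6.03, 22.7 and 10.2% of kept cells in negative replicates 1 to 4 and 1.82, 0.253, 1.81 and 4.72% in positive ones (difference -9.95 points of percent; two-sided p = 0.0286 by exact permutation, the minimum for 4 against 4, adjusted 0.0743 over 13 such tests; cell numbers in edgeR, adjusted p = 0.0301). In brain the shares were 16.1, 5.63, 15.7 and 6.2% and 4.35, 0.593, 0.968 and 1.79% (difference -8.96, exact p = 0.0286, adjusted 0.0743; edgeR 0.0465). In liver they were 21.9, 10.8, 22.6 and 12.6% and 8.27, 1.93, 9.83 and 10.6% (difference -9.32, exact p = 0.0286, adjusted 0.0743), a difference that edgeR did not call (adjusted p = 0.29). In bone they were 14.8, 9.73, 6.46 and 2.0% and 5.33, 4.6, 3.87 and 1.5% (difference -4.41, exact p = 0.20). The positive sample was lower in 4 of 4 replicate numbers in each tissue, and thus within each tag panel. In lung equal numbers were not taken as pairs. For the other intracardiac tissues, cell numbers were also fitted in edgeR with replicate blocks. The B-like share was then lower in brain (log2 ratio -2.62, edgeR adjusted p = 0.00269). It passed neither in bone (-0.948, edgeR adjusted p = 0.0979) nor in liver (-1.35, 0.123).

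In IIA bone B-like cells ran from 2.81 to 9.63% (median 4.31, n = 6) of negative and 0 to 4.02% (median 0.787, n = 6) of positive cells (difference -4.0 percentage points, exact permutation p = 0.00866, adjusted 0.0563, edgeR adjusted p = 0.0017). They were lower in 6 of 6 injection numbers, which were not taken as pairs. Precursor-like cells ran from 1.09 to 7.89% (median 2.92, n = 6) and 0 to 1.61% (median 0.52, n = 6), also lower in 6 of 6 injection numbers (difference -3.12, exact permutation p = 0.00433, adjusted 0.0563, edgeR adjusted p = 0.000488). Plasma-like cells were at 0.427% ± 0.353 (SD, n = 6) and 0.57% ± 0.791 (n = 6; exact p = 0.675).

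Intracardiac precursor-like cells were few. In bone they made up 1.62, 0.0389, 1.1 and 0.114% of negative and 0.548, 0.0978, 0.968 and 0.116% of positive samples (exact permutation p = 0.514). In lung they numbered 0 of 10584 negative cells, which allows a share of up to 0.0283%, and 0 of 7342 positive cells (up to 0.0409%), and liver held 1 such cell. These limits cover counting error only. Plasma-like shares did not pass the exact permutation test in bone (p = 0.257, lower in 4 of 4 replicate numbers), brain (0.514, 4 of 4), liver (0.343, 2 of 4) or lung (0.343, 3 of 4). The cells set aside for markers of other lineages took 0.844, 0.739, 0.654 and 0.0856% of negative and 2.29, 2.25, 4.19 and 1.27% of positive bone cells, and their part in these shares was not tested.

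**Figure D4:**
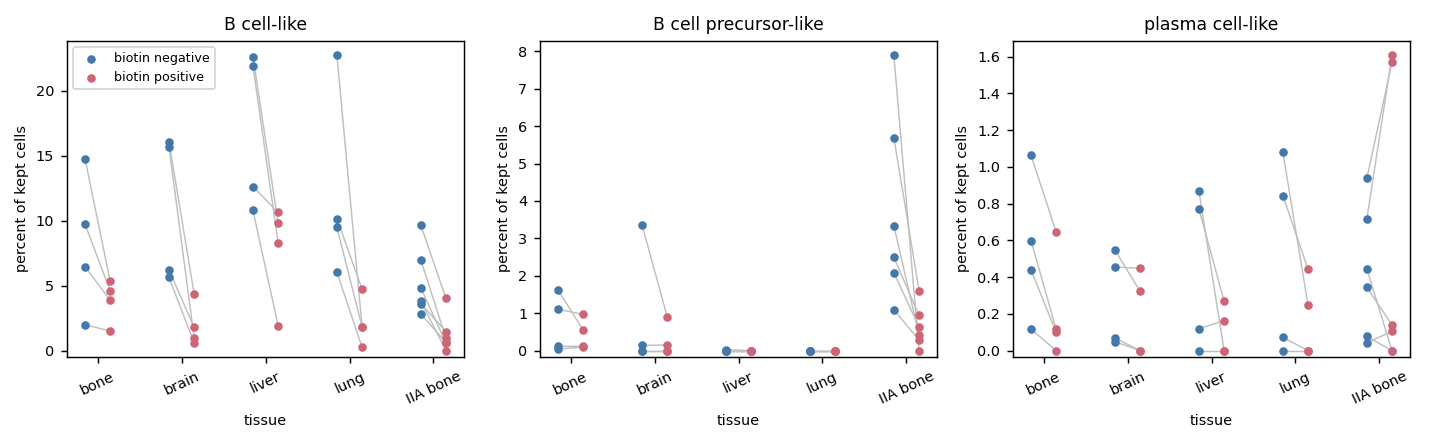
Percent of kept cells that were B-like, precursor-like or plasma-like, by tissue; points are samples and lines join the same replicate number. B-like shares fall along every line, from 22.7 to 1.81% in lung replicate 3, whereas plasma-like shares of IIA bone rise along 3 of 6 lines.

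Within B-like cells alone the genes of the set did not pass in any tissue without the replicate block. The result for Ighd in liver with the block is given below. edgeR called 0 of 29 tested genes in bone (n = 4 and 4), brain (2 positive and 4 negative samples), liver (4 and 4), lung (3 and 4) and IIA bone (3 and 6), and 0% of the 3093, 4213, 4886, 4433 and 3468 genes tested. At an unadjusted p under 0.05 there were 1 gene of the set in liver (1.86% of all genes), 1 in IIA bone (6.11%) and 0 in bone, brain and lung (1.42, 3.54 and 2.77%), and DESeq2 called 0. In the same order of tissues, median log2 fold changes of the set were -0.11, -0.12, -0.08, 0.04 and -0.15, beside 0.01, -0.11, -0.03, 0.00 and -0.12 over all genes tested. Only B-like cells of samples with at least 10 of them were fitted, and the 3 positive IIA samples held 10 to 14 each.

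Per B-like cell, Cd79a in bone was at 3109, 2252, 2412 and 2910.5 CPM in negative and 2861, 2636, 1748 and 2689 CPM in positive samples (log2 fold change -0.10, SE 0.21, edgeR adjusted p = 1.0). In lung it was at 2297, 1916, 2189.8 and 2467 CPM in negative samples (log2 fold change 0.11, SE 0.19, edgeR adjusted p = 0.999). Igkc in bone B-like cells was at 9108, 5437, 8912 and 12496 CPM and 8290.3, 6311, 6069 and 9071 CPM (log2 fold change -0.27, SE 0.25, edgeR adjusted p = 1.0). The sorts overlapped for both genes in bone. Ighd in liver was at 1218, 938, 484 and 412 CPM in negative and 585, 658, 303.5 and 315 CPM in positive B-like cells, lower in 4 of 4 pairs (log2 fold change -0.74, SE 0.33, edgeR adjusted p = 1.0). With the replicate block it was lower at log2 fold change -0.76 (edgeR adjusted p = 0.0107), where 0.0205% of all genes were. Over the 5 fits the log2 fold change of Ighm ran from -0.14 to 0.19, of Igkc from -0.27 to 0.42, of Vpreb3 from -0.52 to 0.03 and of Mzb1 from -0.34 to 0.37. Dntt and Jchain did not pass the low count filter in B-like cells.

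**Figure D5:**
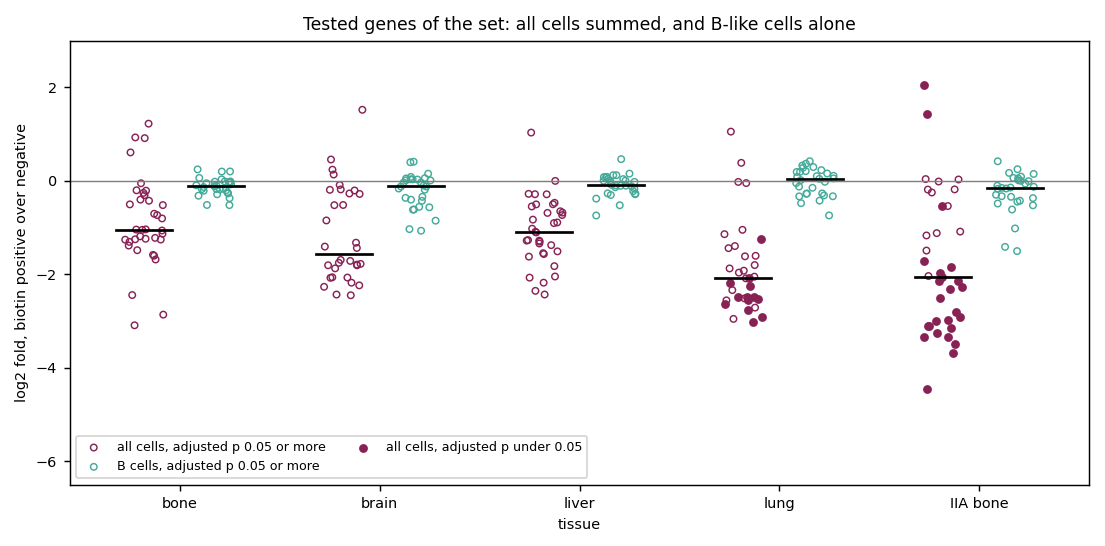
Log2 fold changes (positive over negative) of the tested genes of the set, with all cells summed and in B-like cells alone, by tissue; each point is a gene, filled where the edgeR adjusted p was under 0.05, and bars are medians. Medians with all cells summed run from -2.08 to -1.05, and those in B-like cells from -0.15 to 0.04.

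Across tissues, biotin negative B-like cells were compared as well. Vpreb3 was at 814, 435, 494 and 577 CPM in bone replicates 1 to 4, 886, 300.7, 342 and 335 CPM in brain, 429, 300.7, 146 and 187 CPM in liver and 300.5, 197, 145 and 129 CPM in lung. Bone was above liver and lung in every replicate number, and lung was lowest in all 4. Against the mean of the other tissues edgeR gave bone a log2 fold change of 0.93 (adjusted p = 0.743) and lung -1.09 (adjusted p = 0.50). With the replicate block both passed, at 0.97 (edgeR adjusted p = 0.000227) and -1.07 (adjusted p = 8.53e-05).

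Without the block 0 of 29 tested genes of the set passed in any of the 4 contrasts, nor did any of the 6521 genes tested (0%). At an unadjusted p under 0.05 there were 3 genes of the set for bone, 1 for brain, 0 for liver and 6 for lung (4.36, 2.48, 2.47 and 5.03% of all genes), and DESeq2 called 0. With the block 1 gene was called for bone, where 0.491% of all genes were, and 6 for lung, where 1.35% were. The other lung genes were Cd79b (-0.54), Iglc2 (-0.44), Ralgps2 (-0.43), Iglc3 (-0.42) and Igkc (-0.26), all lower on the log2 scale. Cd79a, Ighm, Ighd, Igkc and Mzb1 lay between -0.44 and 0.25 in the 4 contrasts without the block. Vpreb3 was highest in sub-cluster 6 and lowest in sub-cluster 13 of the B-like sub-clusters, whose shares differed between replicates and tissues. Without both, an alternative chosen after the data had been seen, the log2 fold change was 0.65 in bone (edgeR adjusted p = 0.248) and -0.77 in lung (adjusted p = 0.0645). In brain, Vpreb3 (0.58) was 0.12 without negative replicate 1, the brain sample with most precursor-like cells.

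Other genes of the receptor pathway, from 2 lists of 29 genes each that are not in the set, were followed in the same fits. In lung 8 of 28 tested genes of development and traffic were lower and 0 higher (median log2 fold change -1.59), and of 29 signalling genes 6 were lower and 5 higher (median -0.44). Over all genes tested 6.8% were lower and 11.5% higher, as given above. Among the lower genes of both lists were the progenitor factor Lef1 (-3.75), the lymphoid factor Ikzf3 (log2 fold change -2.76, SE 0.74, edgeR adjusted p = 0.0323), Fcrla (-2.35) and the interleukin 7 receptor Il7r (-2.19). In IIA bone 14 of 27 genes of development were lower and 2 higher (median -1.04), and 16 of 29 signalling genes lower and 3 higher (median -0.63), beside 23.2% lower and 27% higher over all genes. Among those called were Ikzf3 (log2 fold change -3.24, SE 0.40, edgeR adjusted p = 5.26e-05), Lef1 (-3.08), the cytokine receptor Flt3 (-3.07) and the inhibitory receptor Btla (-2.87). In brain 1 of 28 and 2 of 29 genes were higher, where 2.88% of all genes were, namely the APRIL receptor Tnfrsf17 (4.11), Rasgrp3 (2.77) and the tetraspanin Cd81 (2.58), and 0 were lower. In bone and liver, and in every fit of B-like cells, 0 genes of either list passed in edgeR.

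As a single score, the mean of log2(CPM + 1) over the 39 genes with all cells summed was 4.37, 3.25, 5.43 and 4.99 in negative and 3.15, 1.8, 3.43 and 4.09 in positive lung replicates 1 to 4. In IIA bone it was 5.21, 4.84, 4.3, 5.5, 4.35 and 4.46 in negative and 2.57, 3.03, 3.65, 4.28, 2.27 and 3.27 in positive injections 1 to 6. The IIA sorts did not overlap, while in lung positive replicate 4 was above negative replicate 2. In bone it was 5.01, 3.25, 3.78 and 2.8 in negative and 4.09, 2.96, 2.9 and 2.17 in positive replicates 1 to 4, and in liver 4.82, 3.83, 5.4 and 4.84 and 4.27, 3.04, 4.51 and 4.0. In brain it was 4.54, 3.34, 4.74 and 3.54 and 3.59, 2.25, 3.35 and 3.57, and there the positive sample of replicate 4 was slightly above the negative one. The sorts overlapped in bone, liver and brain. No test was made of the score, which also falls with the number of genes at 0 in small samples. Genes whose pattern was among the most like the mean of the 9 receptor complex and coreceptor genes, over 74 combinations of cell class or B sub-cluster and tissue in negative intracardiac samples, were H2-Ob (Spearman's rho 0.888), Traf5 (0.881), BE692007 (0.880) and Gga2 (0.875), of 9661 genes ranked. The points share libraries, and these values are a description.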

How the data were processed

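Single-cell RNA-seq counts of 33 deposited samples were used, 32 from intracardiac injection (CellPlex tags, 3′ ends) and 1 pooled IIA bone sample with 12 hashtags (TotalSeqC, 5′ ends). The deposited values are raw UMI counts per gene and cell, made by the authors with Cell Ranger on mm10, per the submitters' processing notes, which also name Seurat. Replicates were numbered by the labels. Barcodes were kept from 500 UMIs and 200 genes upward if mitochondrial UMIs were 15% or less (55366 of 57065, and 22362 of 26666 in IIA, where 22685 had a hashtag with at least 10 counts and 3 times the next). Cells were clustered with scanpy 1.11.5 and igraph 0.11.9 on 2000 variable genes (30 principal components, 20 for B lineage cells, 15 neighbours, resolution 1.0), without 426 genes (the 39 and immunoglobulin segments), and named from 25 marker lists by at least 3 of the leading genes. No doublets were removed. Clusters of the B lineage whose 10 leading genes held more markers of another class were set aside.

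Counts were summed per sample and tested with edgeR 4.0.16 in R 4.3.3 (quasi-likelihood, filterByExpr, Benjamini-Hochberg adjustment over all genes tested, threshold 0.05). B-like cells were fitted in samples with at least 10 of them. Shares were compared by exact two-sided permutation tests over samples. The script was tested on simulated counts. Alternatives were DESeq2 1.42.0, no low count filter, a replicate block, clusters from all genes, the 5% highest doublet scores left out, at least 20 cells, immunoglobulins out of library sizes, and each sample left out. The members and lists were chosen with earlier results of these data known. Genes named in a comparison are those called, up to 20 by p, and Cd79a, Ighm, Ighd, Igkc, Vpreb3, Dntt, Jchain and Mzb1 in each. Sdc1, Prdm1, Blnk and genes called only in an alternative were named after their values were seen. From the pathway lists up to 5 called genes with the largest fold change were named, apart from 1 gene that is not reported here.

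Labels do not say that equal replicate numbers share an animal. Deviations from group means of equal-numbered positive and negative samples correlated at 0.448 to 0.738 in bone, 0.213 to 0.629 in brain and 0.256 to 0.501 in liver, and those of negative B-like cells of different tissues at 0.200 to 0.524, so the numbers were taken to pair samples there. In lung and IIA bone at least 1 pair was under 0.1.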

Additional observations from a re-analysis of the deposited data

Results flagged for a closer look

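Of 78 groups of 4 to 6 samples, 8 held a sample far from the others (Dixon's test, which chance passes in about 1 in 20 groups). Replicate 1 stood apart in its share of precursor-like cells in 3 groups. In negative brain it held 3.37% against 0.140% in the next sample, in positive brain 0.906% against 0.149%, and in negative liver 0.0297%, which is 1 cell, against 0%. In B-like cells of negative brain, Vpreb3, made in precursors and newly formed B cells, was at 886 CPM in replicate 1 against 342 CPM in the next sample.

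The share of B-like cells was 4.02% in positive IIA injection 4 and 1.47% in the next positive sample. In the same injection Igkc was highest of all IIA samples.

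Among B-like cells of single samples, the precursor polymerase Dntt was at 48.9 CPM in negative brain replicate 3 (19 UMIs over 172 cells) against 1.86 CPM in the next sample, and at 0.915 CPM, which is 1 UMI, in negative liver replicate 3 against 0. Ighm was at 4680.4 CPM in negative liver replicate 3 against 3675 CPM, in a sample in which sub-cluster 13 made up 48.6% of B-like cells.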

How the results depend on the processing

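There were 1808 values of named genes, 1 for each gene and alternative. Of these, 1716 stayed on their side of the threshold, 50 lost the call and 27 gained it. The 1716 can include uncalled genes whose sign changed by no more than the standard error of the main fit. In the other 15 values, also uncalled, the sign changed by more than that. No gene called in the main fit or in the alternative changed sign. The number of the 39 genes called changed as follows, and the cause was not tested. With DESeq2 it was 1 in bone, 9 in brain and 4 in liver. With the replicate block it was 2 in bone, 10 in brain, 26 in lung, 1 in B-like cells of liver, and 1 and 6 in negative B-like cells of bone and lung against the other tissues. Without the low count filter it was 1 in brain, and 1 each in negative B-like cells of bone, brain and lung. The shares of all genes called without the filter are not given, so these counts are not read further. In lung all 26 genes called with the block were lower, where 8.29% of all genes were (20.8% either way). They included Cd79a (log2 fold change -2.88, edgeR adjusted p = 0.0138), Igkc (-2.32, 0.0176), Ighm (-2.29, 0.0295), Jchain (-1.89, 0.00311), Mzb1 (-2.84, 0.00856) and Vpreb3 (-2.37, 0.0488). In IIA bone the block gave 26 lower and 0 higher, against 23 and 2, where 24.4% of all genes were lower and 24.7% higher (49.1% either way). There Ighm was called lower (-2.87, edgeR adjusted p = 0.00168), and Sdc1 (1.28, 0.154) and Prdm1 (1.0, 0.152) were no longer called. Equal-numbered samples of lung and of IIA bone were not taken as pairs, because at least 1 pair correlated under 0.1. As a hint from the data only, 3 of 4 positive lung samples and 3 of 6 in IIA bone correlated best with the negative sample of their own number. The block moved no other count by over 1.5 times.

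The liver B-like share did not pass in edgeR (log2 ratio -1.17, adjusted p = 0.290; with the block -1.35, 0.123), and the IIA plasma-like share reversed with the block (-0.0459).

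With each sample left out, the difference in B-like share ran from -6.49 to -2.24 percentage points in bone, -10.7 to -7.24 in brain, -11.4 to -7.41 in liver, -12.0 to -6.41 in lung and -4.55 to -3.13 in IIA bone. Without any 1 positive sample in brain, liver and lung, where fewer assignments are possible, the exact permutation p was above 0.05, and each remaining positive sample was below each negative one. It fell to 0.0286 in bone without negative replicate 4. Precursor-like shares ran from -0.514 to 0.0133 in bone, -0.906 to 0.217 in brain (the latter without negative replicate 1) and -3.66 to -2.30 in IIA bone. Plasma-like shares ran from -0.485 to -0.170 in bone, -0.172 to 0.00191 in brain, -0.478 to -0.188 in liver, -0.493 to -0.133 in lung and -0.0644 to 0.257 in IIA bone, where they reversed without positive injection 4 or 6. The number of genes called ran from 0 to 7 in brain, 2 to 15 in lung and 21 to 28 in IIA bone, and was 0 elsewhere. For IIA bone the shares of all genes called with a sample left out are not given. Precursor-like cells were in too few samples for a fit, which was not run. Few positive B-like cells limit the fits within B-like cells.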
